A study of Mus musculus with 6 samples.

Results

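Open chromatin at the 3' ends of protein-coding genes was examined in mouse lung endothelial cells with and without CSE. Of the 58172 accessible regions in the deposited table, 748 (1.29%) had their centre within 1 kb of the annotated 3' end of a protein-coding gene and more than 2 kb from the start site of every protein-coding gene of the table. They lay at the ends of 730 of the table's 12711 protein-coding genes, and 18 genes had 2 such regions. The rule used positions and gene biotypes only. It was set with earlier results of these data known, so what it picked out is not independent of them.

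The assay was ATAC-seq, in which the transposase Tn5 inserts sequencing adapters preferentially into open DNA. Each library was made from a fixed number of isolated lung endothelial cells, per the labels. There were 3 wild-type libraries, labelled WT and Cre-negative, and 3 libraries labelled CSE-KO and Cre-positive. The labels give no driver of the Cre, no age, sex or strain, and no treatment, and they do not say whether libraries came from separate animals, so every p-value below reflects the scatter of these libraries alone. CSE (cystathionine gamma-lyase, gene Cth) cleaves cystathionine to cysteine and also makes hydrogen sulphide from cysteine and homocysteine. At the Cth promoter the values were 195, 157 and 167 in WT against 11, 6 and 2 in CSE-KO, in the direction that the labels give.

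RNA polymerase II reads through the end of a gene, where the transcript is cleaved and polyadenylated, and is released some distance beyond it. Chromatin around a 3' end can therefore be opened by polymerase passing through, and it can also hold enhancers that have nothing to do with the end itself. Heat-shock genes are the classic case of strong inducible transcription: the factor HSF1 binds inverted repeats of a short element in their promoters and releases paused polymerase into the gene.

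The largest rises at 3' ends were at the heat-shock genes Hspa1b and Hspb1, so the 250 bases before their RefSeq start sites are shown with those of Hspa1a, the neighbouring copy of Hspa1b. The build is GRCm38.p6, which is mm10, and each sequence runs 5' to 3' on the gene's strand. Capitals mark matches to GAANNTTC or TTCNNGAA, 2 facing heat-shock element units.

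Hspa1b promoter, chr17:34959239-34959488, minus strand: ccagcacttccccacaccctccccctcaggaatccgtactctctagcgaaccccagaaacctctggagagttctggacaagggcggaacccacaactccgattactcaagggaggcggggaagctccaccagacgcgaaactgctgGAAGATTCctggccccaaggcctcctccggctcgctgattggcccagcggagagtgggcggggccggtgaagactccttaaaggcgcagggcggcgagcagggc
Hspa1a promoter, chr17:34972157-34972406, minus strand: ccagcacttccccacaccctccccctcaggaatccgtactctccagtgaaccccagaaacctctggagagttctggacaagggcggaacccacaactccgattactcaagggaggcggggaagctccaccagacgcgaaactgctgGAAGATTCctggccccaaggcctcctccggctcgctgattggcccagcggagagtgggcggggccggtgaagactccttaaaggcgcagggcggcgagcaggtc
Hspb1 promoter, chr5:135887669-135887918, plus strand: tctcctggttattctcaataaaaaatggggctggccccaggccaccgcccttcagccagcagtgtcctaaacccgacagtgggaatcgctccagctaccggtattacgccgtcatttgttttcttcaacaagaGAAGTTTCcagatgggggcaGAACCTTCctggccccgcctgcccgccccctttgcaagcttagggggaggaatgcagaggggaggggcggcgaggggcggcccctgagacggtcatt

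The Hspa1b and Hspa1a sequences were identical at 247 of 250 positions, and each held 1 match, starting 104 bases before the start site. Hspb1 held 2 matches, starting 117 and 97 bases before it. Both motifs are their own reverse complement, so a match on one strand is a match on the other. One or both motifs were present in 12.9% of 27025 RefSeq promoters of this length (GAANNTTC in 6.78%, TTCNNGAA in 7.1%). Of the genes with a 3' end region, 565 of the 727 with a symbol had a RefSeq promoter, and 62 of those held a match. Among the 31 matched genes whose 3' end region was called higher in CSE-KO the number was 8 (25.8%): Alkbh3, Arvcf, Gbp7, Gk5, Hspa1b, Hspb1, Kctd7 and Uhrf1bp1l. A match describes the letters only.

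Beyond the end of Hspa1b, an inducible HSP70 chaperone, accessibility was near the floor in WT and among the highest of all 3' end regions in CSE-KO. The region chr17:34955547-34956764 is centred 280.5 bp beyond the end and spans it, and its values were 6, 18 and 10 in WT against 743, 804 and 812 in CSE-KO. The groups were far apart, with means of 11.3 ± 6.11 in the wild type against 786 ± 37.7 in CSE-KO (SD, n = 3). The log2 change was 6.11 ± 0.34 (SE), an adjusted p of 0.000866 by limma with Benjamini-Hochberg adjustment over all 58129 regions with a mean of at least 5. The promoter of the same gene had 198, 209 and 169 in WT against 273, 313 and 251 in CSE-KO, a log2 change of 0.54 that was not called (adjusted p = 0.077). Changes are differences of log2(value + 1), and folds are taken from them, so they understate changes of low regions.

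Hspb1 encodes HSP27, a small chaperone that binds unfolding proteins and actin. Its region at chr5:135890011-135890621 begins outside the gene and is centred 753 bp beyond the end. The values were 10, 9 and 6 in WT against 243, 195 and 197 in CSE-KO, so the groups did not overlap. The log2 change was 4.53 ± 0.22 (limma adjusted p = 0.000833), against 0.70 at the promoter (adjusted p = 0.0269), where the values were 145, 131 and 134 in WT against 211, 213 and 244 in CSE-KO.

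Hspa1a, the other inducible HSP70 gene, had no region that met the distance rule. The start site of Gm20481, a predicted protein-coding gene on the opposite strand, lay 505.5 bp from the centre of the region across the Hspa1a end and 1460 bp from that of a region further on. The first, chr17:34968766-34970047, had 12, 1 and 4 in WT against 617, 688 and 712 in CSE-KO (log2 change 7.05 ± 0.60, limma adjusted p = 0.00236). The second, 738 bp beyond the end, had 1, 3 and 3 in WT against 188, 188 and 141 in CSE-KO (5.76 ± 0.31, adjusted p = 0.000866). With WT values this close to 0, the size of these changes depends on the pseudocount. The Hspa1a promoter rose by less, from 93, 94 and 110 to 199, 162 and 143 (0.75, adjusted p = 0.0367). Hspa1a and Hspa1b are near-identical, and how the authors placed reads that fit both is not given in the sources used here, so the division of reads between them is uncertain.

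**Figure D1:**
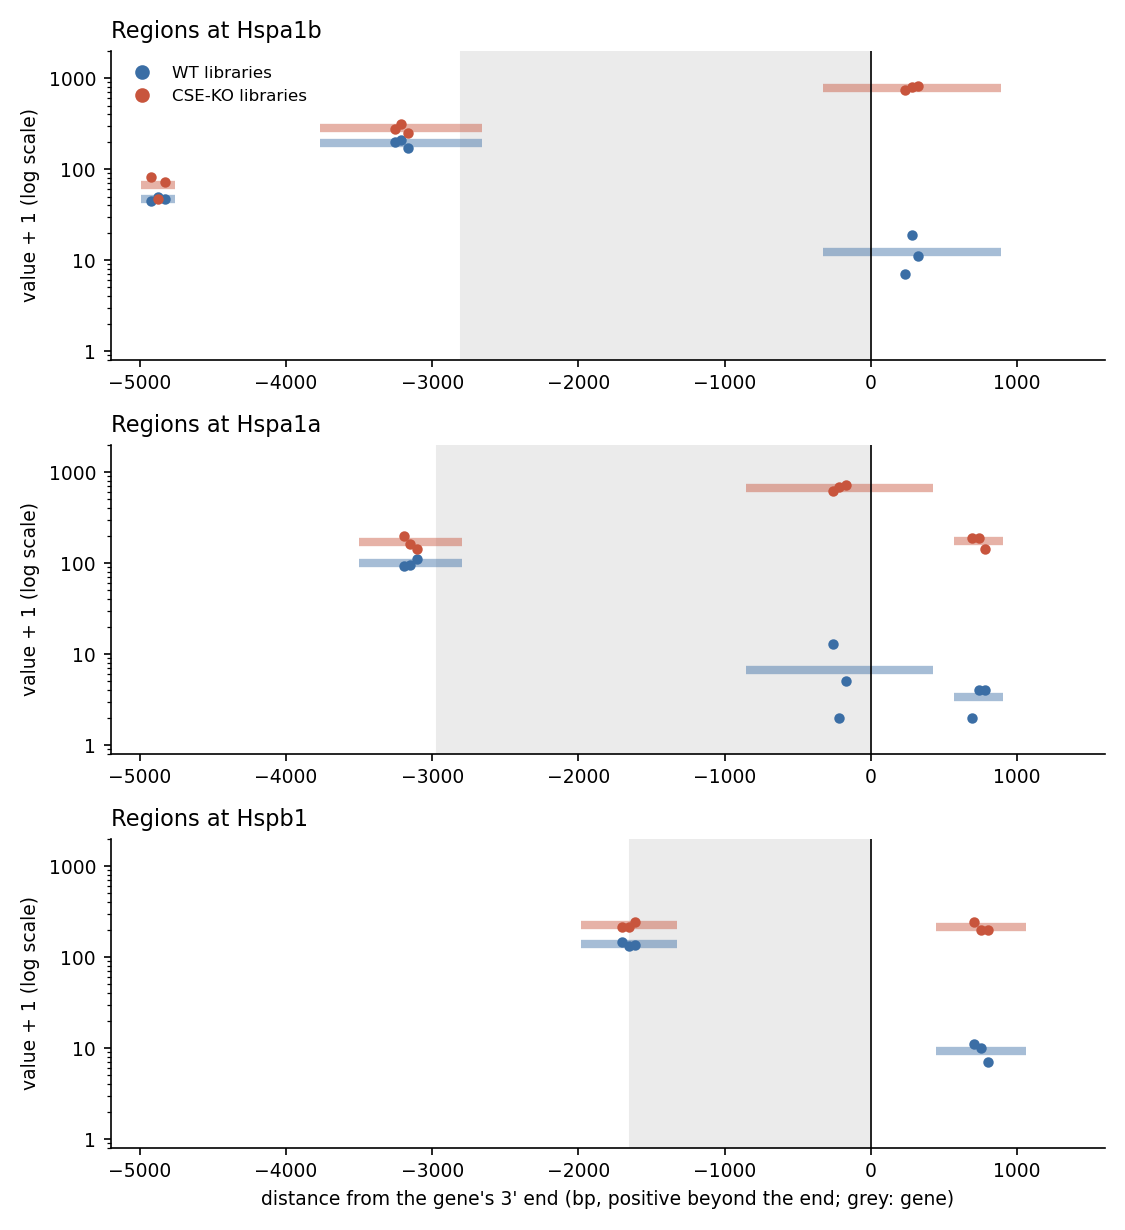
Regions at Hspa1b, Hspa1a and Hspb1 by distance from the gene's 3' end in bp (x axis; grey, the gene) and value + 1 on a log scale (y axis). Horizontal bars span each region at its group mean and points are the 3 WT (blue) and 3 CSE-KO (red) libraries; at the Hspa1b end CSE-KO libraries lie at 743 to 812 and WT libraries at 6 to 18, while the promoters on the left lie much closer together.

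The rest of the chaperones did not give the same picture. The 5 lists covering HSP70 and HSP110, small heat-shock proteins, HSP90 with its co-chaperones, HSP40 with HSP70 co-chaperones, and chaperonins hold 65 genes of the table. Only 6 of them had a 3' end region by the rule. Of these regions, 2 were called higher (Hspa1b, Hspb1) and 1 lower (all tested regions, 7.7% and 9.6%). A further 3 were kept out by a nearby start site, of which the 2 at Hspa1a were called higher. The lower one lay beyond Cct8, a subunit of the TRiC chaperonin, and also within 1 kb of another gene's 3' end on the opposite strand. It had 107, 120 and 100 in WT against 72, 40 and 49 in CSE-KO (log2 change -1.05, limma adjusted p = 0.0282). That call was lost in 6 alternatives, namely each fit without a WT library, those without CSE-KO replicate 2 or 3, and the replicate block (adjusted p 0.0552 to 0.0992). Cct2 was at 0.72 (adjusted p = 0.0693), Dnajb12, an endoplasmic reticulum co-chaperone, at -0.47 (0.114; called lower with trend and robust variance in limma, adjusted p = 0.0284) and Hspb7, a cardiac small heat-shock protein, at -0.58 (0.0786).

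Rises did occur at other 3' ends. Of the 748 regions, all of which could be tested, 40 at 39 genes were called higher in CSE-KO (5.35%, against 7.7% of all tested regions) and 81 at 80 genes lower (10.8%, against 9.6%). In either direction 16.2% were called, against 17.3%. Called means a limma adjusted p below 0.05. The share called higher was thus no larger at 3' ends than over the table as a whole, and 38 of the 40 rises lay at genes other than Hspa1b and Hspb1. In all 121 called regions the 2 groups did not overlap. Groups were separate in 39.8% of the 748 regions, against 39.5% of all tested. The median log2 change was -0.08, against -0.004 over all tested regions.

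By size, 10 rises reached 4-fold (1.34%, against 0.652% of all regions called at least 4-fold higher), 16 lay between 2-fold and 4-fold and 14 were smaller. At least 2-fold higher were 26 regions (all regions, 4.32%) and at least 2-fold lower 44 (all regions, 5.93%). Of the falls, 1 reached 4-fold, against 0.667% of all regions, 43 lay between 2-fold and 4-fold and 37 were smaller. The 10 largest rises were 2 at Sfi1 and 1 each at Hspa1b, Hspb1, Pisd, Slc30a4, Ppif, Hells, Ftl1 and Styk1. Leaving out single WT libraries cut the counts: without WT replicate 1, 2 or 3, 25, 23 and 21 regions were called higher and 27, 25 and 30 lower, while the number at least 4-fold higher was 10 to 12 whichever library was left out. With the replicate number as a block, 25 were called higher and 44 lower. Of the calls, 20 of the 40 higher and 22 of the 81 lower were made in every fit that left 1 library out.

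**Figure D2:**
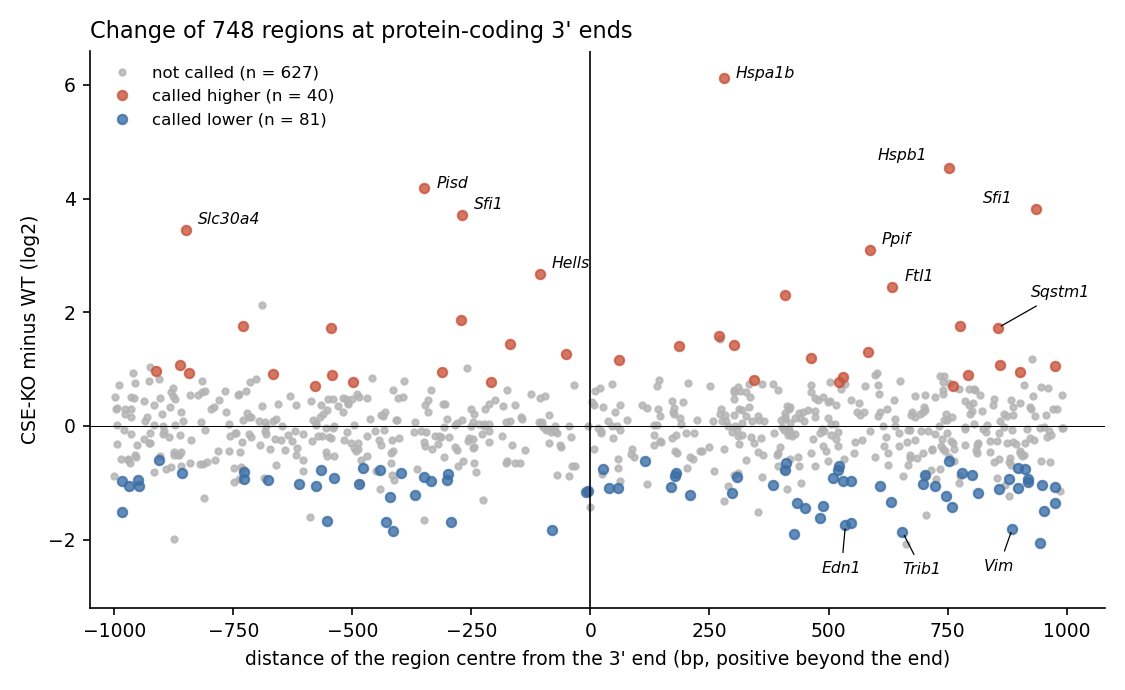
Log2 change (y axis, CSE-KO minus WT) of the 748 regions against the distance of their centre from the 3' end in bp (x axis, positive beyond the end); each point is 1 region, red called higher (40), blue called lower (81), grey not called. The high points at Hspa1b (6.11) and Hspb1 (4.53) stand above all others, and rises and falls lie on both sides of the end.

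The shares called at 3' ends can be set beside those in other parts of the table. Of 12974 tested regions within 2 kb of a protein-coding start site, 5.34% were called higher and 2.41% lower, with a median change of 0.12. Of the other 44407 regions more than 2 kb from every such start site, 8.43% were called higher and 11.7% lower, with a median of -0.06. Among these, the 19401 inside protein-coding genes had 7.02% higher and 12.5% lower, and the 25006 outside had 9.53% and 11.1%. The differences between these shares were not tested, since regions of the same libraries are not replicates.

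**Figure D3:**
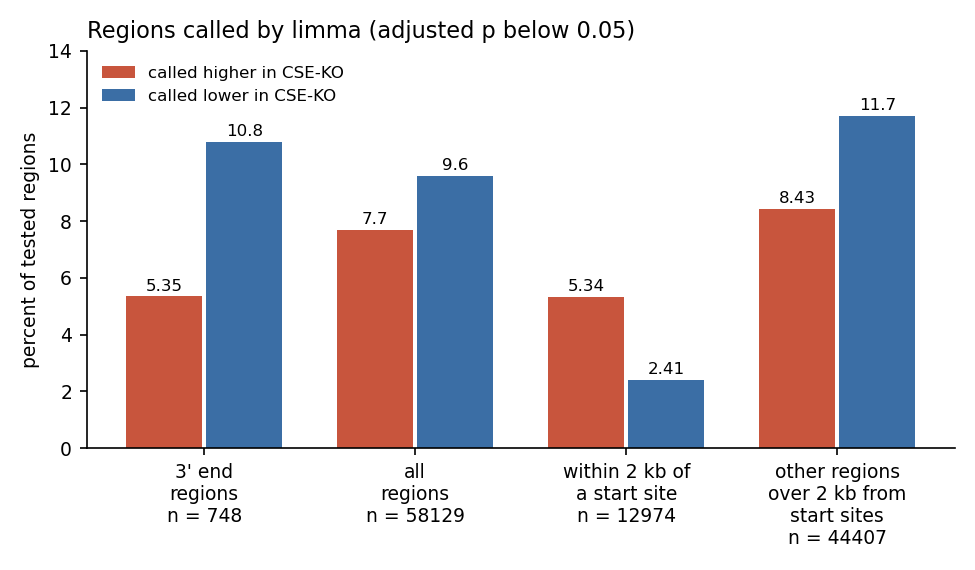
Percent of tested regions called higher (red) and lower (blue) in CSE-KO (y axis) in 4 groups of regions (x axis, n below each name), with adjusted p below 0.05 by limma. At 3' ends 5.35% were called higher and 10.8% lower, and near start sites 5.34% and 2.41%.

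The authors' values were already scaled between libraries. The columns summed to 5242490 to 5368491 in WT and 5437296 to 5547417 in CSE-KO. The CSE-KO columns skip 39, 35 and 39 of the whole numbers up to 100 and the WT columns skip none, so 1 read was worth about 1.63, 1.53 and 1.63 in CSE-KO, which puts those libraries at roughly 3330000, 3620000 and 3390000 reads in regions. A low CSE-KO value therefore rests on fewer reads than the same WT value. This difference runs with genotype, and its part in the calls was not tested. Markers of other cells were read at promoters. Of 10 endothelial markers 8 had a promoter region, whose values summed to 1094 to 1166 in WT and 1298 to 1458 in CSE-KO (2 called higher, 1 lower); those of Pecam1 and Sox17 had none. Of 8 mural and fibroblast markers 4 had one (198 to 204 and 254 to 281). Col1a1 was called higher, while Myh11 (log2 change -0.70), Pdgfrb (0.25) and Acta2 (0.15) were not called. Of 6 lung epithelial markers 2 had one (53 to 59 and 54 to 80), Epcam, called higher, and Hopx (-0.53), not called. Of 7 leukocyte markers Spi1 alone had one (155 to 194 and 91 to 106, called lower). Their part in the results was not tested, and in bulk libraries a change in the mix of cells and a change within cells cannot be told apart.

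Over the 748 regions together, the share of all values was lower in every CSE-KO library than in every WT library. The WT share was 1.02% ± 0.011 and the CSE-KO share 0.918% ± 0.019 (SD, n = 3), a difference of -0.106 percentage points, and the groups did not overlap. An exact permutation test, two-sided, gave p = 0.1, and 3 libraries against 3 cannot give a smaller one. Without regions of more than 10000 in any library the difference was -0.0608. The direction turned, to 1.70 percentage points higher in CSE-KO, when predicted genes were not counted as start sites, which added 39 regions, 2 of them above 10000. The shares were 0.432% and 0.397% before the end, and 0.592% and 0.521% beyond it.

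Sfi1, a centrosomal protein gene, had both of its 3' end regions raised. The region 935 bp beyond the end (chr11:3130825-3131005) had 24, 13 and 16 in WT against 250, 294 and 225 in CSE-KO (log2 change 3.82 ± 0.25, limma adjusted p = 0.00128). The region 270.5 bp before it (chr11:3131779-3132462) had 100, 72 and 80 against 1127, 1157 and 1038 (3.72 ± 0.18, adjusted p = 0.000833). The rise was not limited to the end: all 11 regions from 3000 bp before the gene to 3000 bp beyond it were called higher, the promoter by 1.98. Both 3' end regions overlap Pisd-ps1, a RefSeq pseudogene of Pisd, so reads may be shared with near-identical copies.

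Pisd itself, which encodes the mitochondrial phosphatidylserine decarboxylase, had a region 348.5 bp before its end with 5, 2 and 1 in WT against 75, 47 and 59 in CSE-KO (4.19 ± 0.40, limma adjusted p = 0.00302). Its promoter was at 0.27 (adjusted p = 0.387). Regions 1580.5 bp before and 2203 bp beyond the end also rose, by 3.70 and 3.77. Because of Pisd-ps1, the division of reads between Pisd and Sfi1 is uncertain. Pisd and the next 4 genes are below the mean value set for naming genes and were chosen after their values were seen.

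Slc30a4, a zinc transporter, had 8, 3 and 2 in WT against 52, 43 and 59 in CSE-KO at a region 849 bp before its end (log2 change 3.45). Ppif encodes cyclophilin D, a regulator of the mitochondrial permeability pore, and went from 3, 3 and 5 to 23, 55 and 44 (8.57-fold), at a region 227.5 bp from the RefSeq start of the antisense gene Ppifos. Hells, a chromatin remodeller that supports DNA methylation, went from 6, 7 and 11 to 64, 57 and 46 (2.68). All 3 regions were low in WT and the groups were well apart, as they were at Styk1, a kinase-like gene, with 14, 13 and 11 against 65, 77 and 57 (2.30). Their limma adjusted p-values ran from 0.00211 at Styk1 to 0.00435 at Slc30a4.

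Ftl1 encodes the ferritin light chain, and its region at chr7:45456877-45457743, 634 bp beyond the end, had 98, 65 and 51 in WT against 425, 398 and 320 in CSE-KO. That is a log2 change of 2.44 ± 0.27 (limma adjusted p = 0.00392), while the promoter went from 173, 181 and 144 to 124, 165 and 143 (-0.21, adjusted p = 0.473). The Ftl1 region also lay within 1 kb of the 3' end of another protein-coding gene, on the opposite strand. Sqstm1, the autophagy receptor p62 and an NRF2 target, had 44, 38 and 33 against 136, 104 and 148 at chr11:50198320-50198702, 855 bp beyond the end (1.72 ± 0.20, adjusted p = 0.00465). Its second region, 273 bp beyond, had 29, 10 and 35 against 77, 69 and 52, which were separate but not called (1.54, adjusted p = 0.0536), and the promoter was at -0.01. RefSeq places the Sqstm1 end further upstream, which puts the called region 1641 bp beyond it.

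Ftl1 and Sqstm1 belong to a list of ATF4, NRF2 and metallothionein genes. Of its 26 genes, 5 had a 3' end region, 6 regions in all, since Sqstm1 had 2 (1.72 and 1.54). Of the 6, 2 were called higher and none lower (all tested regions, 7.7% and 9.6%). The median log2 change was 1.04, against -0.004 over all tested regions. The other 3 genes were at 0.55 (Srxn1, which reduces oxidised peroxiredoxins), -0.08 (Sesn2) and -0.61 (Slc3a2), and none was called. A region at the end of Mt2, a metallothionein, rose by 1.77 but lies 92.5 bp from a start site and does not meet the rule. Earlier results of these data were known when this list was written, so it is no independent evidence.

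Other rises of 2-fold to 4-fold were at genes on none of the lists. Vrk3 (log2 change 1.87) and Tmem44 (1.75) were low regions, named after their values were seen. Cntf, a neurotrophic factor, went from 36, 33 and 19 to 118, 120 and 67 (log2 change 1.76, limma adjusted p = 0.0145), and Uhrf1bp1l from 34, 47 and 37 to 137, 123 and 131 (1.72, 0.00369). Cby3 was up by 1.45, Zbtb22, a zinc finger gene, by 1.43, Alkbh3, a DNA alkylation repair enzyme, by 1.30, and Rax, a homeobox gene of eye development, by 1.20. A RefSeq start site of another gene lay close to 2 of these regions, Tapbp at 147.5 bp for Zbtb22 and Alkbh3os1 at 67.5 bp for Alkbh3. Gnaq, a G protein subunit, rose by 1.08 (adjusted p = 0.0446), a call that was lost in 7 of the alternatives, among them each fit without a WT library (adjusted p 0.0504 to 0.141). From the ends that RefSeq gives, the Rax region lay at 6825.5 bp and the Gnaq region at -1918.5 bp (negative, before the end). Over all 748, 20 regions lay within 1 kb of a RefSeq start site. Of these 20, 3 were called higher, at Ppif, Zbtb22 and Alkbh3, and none lower. Of the other 728, 37 were called higher (5.08%) and 81 lower (11.1%). All tested regions had 7.7% higher and 9.6% lower, and differences between these shares were not tested.

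The difference between 3' end and promoter was tested directly in the 575 genes that had both, as the change in log2(3' end + 1) minus log2(promoter + 1). It was higher in 30 genes (5.22%) and lower in 67 (11.7%) at a limma adjusted p below 0.05 over these genes. The median difference was -0.24, made of a median of 0.10 at promoters and -0.09 at 3' ends. The largest positive differences were 5.58 at Hspa1b (adjusted p = 0.000125), 3.92 at Pisd, 3.83 at Hspb1 (0.000141), 3.18 at Slc30a4, 2.90 at Gramd1a, 2.76 at Hells and 2.65 at Ftl1 (0.0024). At Gramd1a it came from the promoter, which fell while the 3' end stayed near 0 change. Called negative differences included Spon1 (-2.12) and Thbs1 (-2.08), both secreted matrix proteins, as well as Pafah1b1 (-2.04), Znhit6 (-2.01), Vim (-1.90), Edn1 (-1.78) and Kdr (-1.76).

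Few genes were called at both the promoter and the 3' end, and few promoters were called at all. Over the 575 genes the promoter was called higher in 26 and lower in 21. Of the 30 genes in this set with a 3' end called higher, the promoter was called higher in 2 (Hspb1 and Sfi1), lower in 2 and not called in 26. Of the 64 with a 3' end called lower, it was called higher in 4, lower in 3 and not called in 57. Across the 575 genes, which share libraries and are not independent, Pearson's r was 0.074 and Spearman's rho -0.007. The count of genes with a called positive difference, 3' end minus promoter, dropped to 15, 19 and 19 without WT replicate 1, 2 or 3. That with a called negative difference dropped to 12, 15 and 23.

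**Figure D4:**
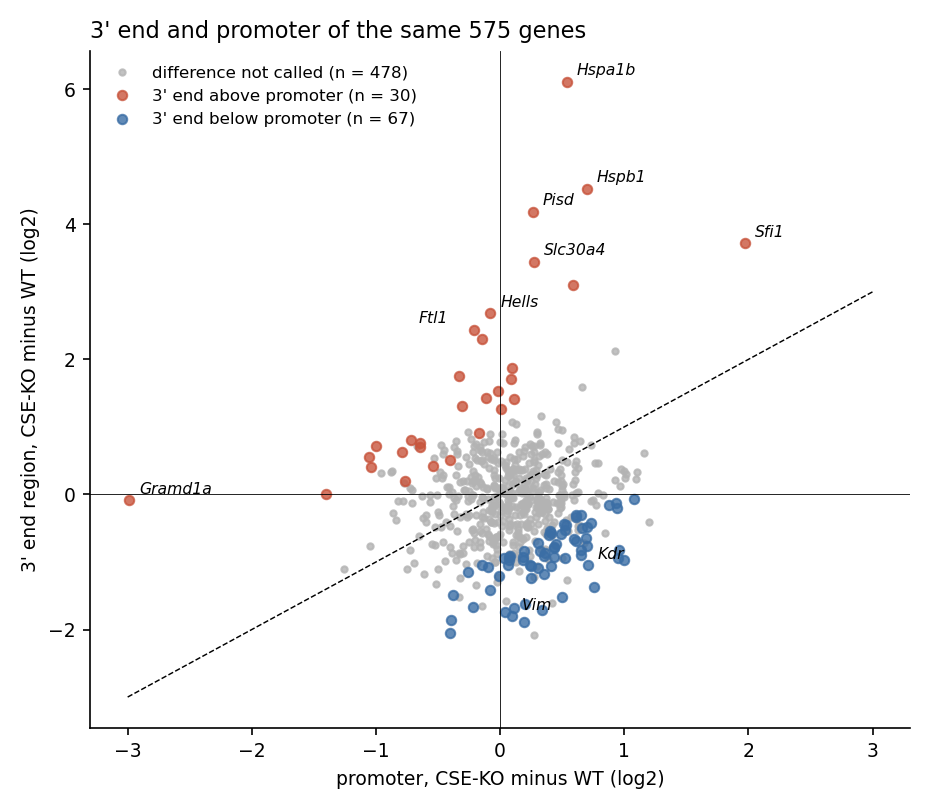
Log2 change at the 3' end region (y axis) against that at the promoter (x axis) of the same 575 genes; each point is 1 gene, the dashed line marks equal change, and colours mark genes whose difference was called (30 above, 67 below). Hspa1b and Hspb1 lie far above the line, and Vim and Kdr below it.

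Falls were more numerous and narrower in size. The largest called falls among regions of at least median value were at Trib1, Vim and Edn1, all beyond the end. Trib1 is a pseudokinase that guides protein degradation, and its region went from 86, 64 and 63 to 20, 14 and 23 (log2 change -1.86, limma adjusted p = 0.00542). Vim encodes vimentin, the intermediate filament of mesenchymal and endothelial cells, with 283, 286 and 259 in WT against 80, 58 and 103 in CSE-KO at chr2:13583280-13584144 (-1.80 ± 0.23, adjusted p = 0.00561). Edn1 encodes the vasoconstrictor endothelin-1, with 196, 240 and 223 against 51, 72 and 75 at chr13:42308014-42309037 (-1.73 ± 0.21, adjusted p = 0.00463). Every CSE-KO library lay below every WT library in all 3, which was a condition for naming them. Their promoters were at -0.39, 0.10 and 0.04, none of them called.

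The next falls were at Pafah1b1 (-1.71), a dynein regulator, C1qtnf4 (-1.69), Tigd3 (-1.67), Aacs (-1.61), which activates acetoacetate, Znhit6 (-1.52), Emp1 (-1.49), a membrane protein, Tmem88b (-1.45), Nfe2l3 (-1.42), a relative of NRF2, and Arid5b (-1.41), a chromatin regulator. Aacs was not called without WT replicate 1, 2 or 3 (adjusted p 0.0855 to 0.102). Nfe2l3 was not called without WT replicate 1 or 2 or with the replicate block (0.0522 to 0.0741). Promoters of these genes, where measured, ranged from -0.38 at Emp1 to 0.50 at Znhit6, and none was called. From the end that RefSeq gives, the Znhit6 region lay at -1433.5 bp (negative, before the end).

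**Figure D5:**
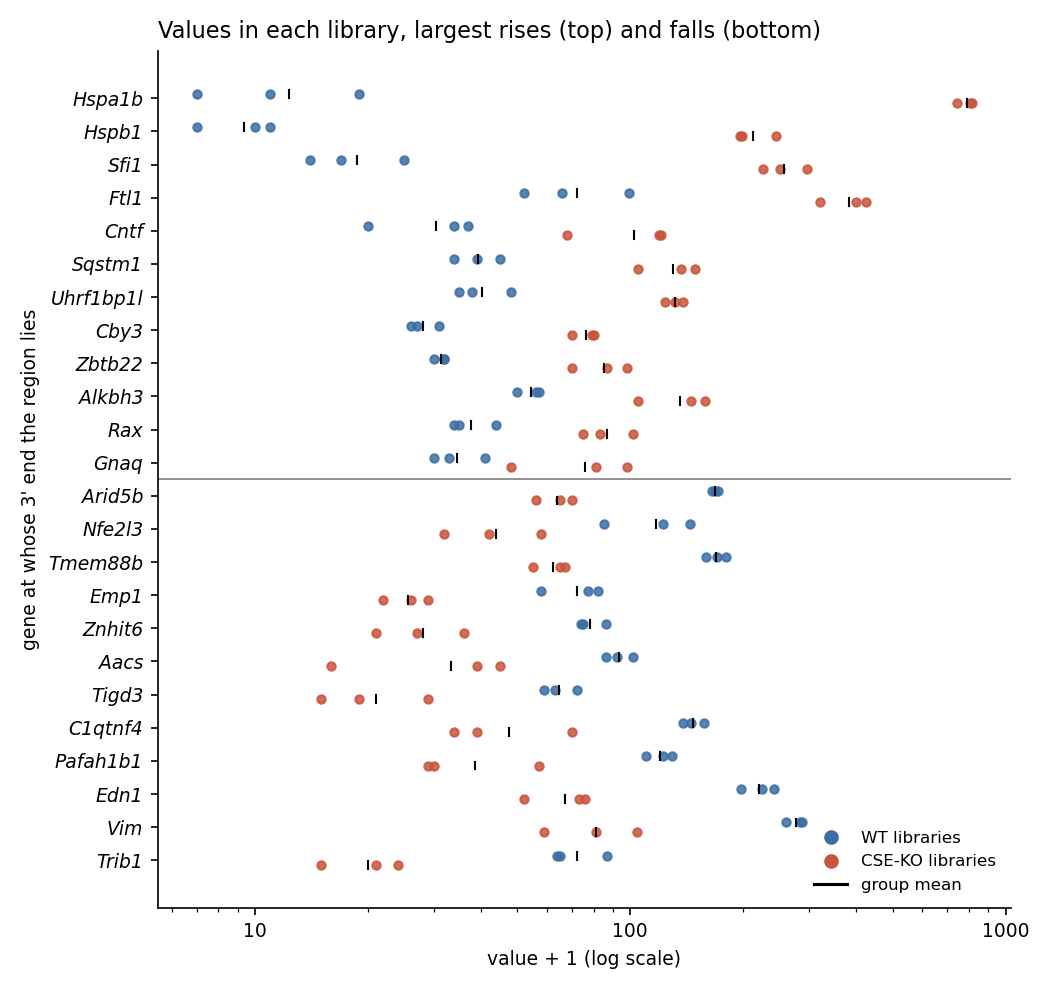
Value + 1 in each library (x axis, log scale) for the 12 largest rises and 12 largest falls among called regions of at least median value (y axis, gene names); blue points are WT, red points CSE-KO and black ticks group means. Separate groups were a condition for choosing these 24. Values run from 6 to 18 against 743 to 812 at Hspa1b to 63 to 86 against 14 to 23 at Trib1.

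Of 37 immediate early and related genes, 7 had a region; 3 were called lower and none higher (all tested regions, 9.6% and 7.7%), with a median of -0.91 against -0.004 over all. Another 2, at Ier2 (0.07) and Ier3 (-0.05), were kept out by a start site and not called. Ccn2, a matricellular protein induced by stretch and growth factors, went from 92, 86 and 97 to 36, 31 and 41 (log2 change -1.33, limma adjusted p = 0.0058). Sgk1, a kinase induced by serum and steroid hormones, went from 486, 503 and 403 to 185, 199 and 228 (-1.18, 0.00815). Ccn1, a relative of Ccn2, went from 378, 436 and 343 to 188, 188 and 169 (-1.08, 0.00914). The rest, not called, were Btg2 at -0.91, Csrnp1 at -0.48, Gadd45g at -0.26 and Ier5l at 0.44.

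Of 23 endothelial genes 5 had a 3' end region, 6 regions in all. Of the 6, 1 was called lower and none higher (all tested regions, 9.6% and 7.7%). Kdr, the main VEGF receptor, had 224, 229 and 223 in WT against 103, 123 and 100 in CSE-KO at a region 947.5 bp before its end (log2 change -1.05, limma adjusted p = 0.0088), and its promoter rose by 0.71 (adjusted p = 0.0268). The other 5 regions, at Egfl7 (-0.27), Cdh5 (-0.55 and -0.26), Robo4 (0.11) and Flt4 (-0.51), were not called. Klf4, Klf6 and Nos3 of the flow-responsive list were at -0.41, -0.30 and -0.45, and Acvrl1 and Hes1 of the BMP list at 0.30 and -0.30, none of them called.

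Among 25 abundant cytoskeletal and housekeeping genes, 4 had a region and 2 were called lower, Vim and Tmsb4x (all tested regions, 9.6% lower). Tmsb4x, an actin-binding peptide, was at -1.10, a call lost in each fit without a WT library and in that without CSE-KO replicate 2 (adjusted p 0.0537 to 0.104). Tmsb10 was at -0.07 and Gapdh at -0.58. A second region, 986 bp before the Tmsb10 end, was called higher (1.08, limma adjusted p = 0.0088). It lies 415 bp from the start site of Tmsb10 itself, a gene of 1402 bp, and does not meet the rule. Of 69 cytosolic ribosomal protein genes 5 had a region, of which 1 was called higher and 1 lower (all tested regions, 7.7% and 9.6%). Rpl26 was lower, with 42, 30 and 35 against 11, 14 and 7 (-1.69, limma adjusted p = 0.00937). Its region lay 2162 bp beyond the end that RefSeq gives, so by RefSeq it is not at the gene end. Rps15a was higher, with 55, 43 and 55 against 124, 90 and 77 (0.89, adjusted p = 0.0373), a call lost in 6 alternatives, among them each fit without a WT library (0.0618 to 0.125). Many ribosomal, ferritin and thymosin genes have processed pseudogenes, and whether reads were split with such copies was not tested. The called regions at Ftl1, Tmsb4x, Rpl26 and Rps15a overlap no RefSeq pseudogene. Those at Ftl1 and Tmsb4x lie wholly beyond the gene end.

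Other lists held little at 3' ends. None of 17 histone genes had a region by the rule, since start sites lay within 2 kb of all 35 regions within 1 kb of their ends. Of these 35, 4 were called lower, and they were centred 1 to 88.5 bp from a start site. Over all tested regions 9.6% were called lower, and 2.41% of those within 2 kb of a protein-coding start site. Mural genes had no region. Of 214 Zfp genes 2 had one (Zfp512b at 0.25, Zfp36l2 at 0.16). The epithelial list had Scgb1a1, the club cell secretoglobin, at -0.02, and the leukocyte list had Spi1 at 0.20 and Lyz2 at -0.26. None of these 5 was called.

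The regions of highest value went different ways. The region beyond Snai1, a repressor of E-cadherin, had 594, 539 and 575 in WT against 240, 287 and 299 in CSE-KO (log2 change -1.05, limma adjusted p = 0.00938), with the promoter at -0.14. Wwc1, a Hippo pathway scaffold, had 548, 507 and 455 against 583, 454 and 548 (0.07), and Mrpl58, a mitochondrial ribosomal protein, 521, 470 and 407 against 428, 582 and 535 (0.14). Both overlapped between groups. Btd, which recycles biotin, had 542, 493 and 513 against 399, 297 and 325 (-0.61) and missed the threshold at a limma adjusted p of 0.0549. It was called in 5 alternatives (adjusted p 0.000501 to 0.0437). The Btd region lay 1327.5 bp beyond the end that RefSeq gives.

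Rises and falls occurred on both sides of the end. Of 343 regions centred before the end, 18 were called higher (5.25%) and 31 lower (9.04%), with a median of -0.10. Of 405 beyond it, 22 (5.43%) and 50 (12.3%) were, with a median of -0.08. Over all tested regions the shares were 7.7% and 9.6%, and differences between shares were not tested. The outermost class, 750 to 1000 bp beyond, had 9 higher and 18 lower of 114 (7.89% and 15.8%). Of 114 regions that span the end, 5 were higher and 11 lower (4.39% and 9.65%), and of 39 regions within 1 kb of more than 1 end, 3 and 4 (7.69% and 10.3%).

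Calls were also counted by width and level, with no test. The called rises had a median width of 387 bp and the falls 514 bp. Of 126 regions of at most 250 bp, 10 were called higher and 5 lower, with a median of 0.12, whereas of 107 regions over 700 bp, 2 and 19 were, with a median of -0.30. Over all tested regions, 11.5% of those of at most 250 bp were called higher and 5.7% lower, and 4.15% and 8.31% of those over 700 bp. By mean value, 2 of 136 regions between 5 and 20 were called higher and 6 lower, 17 and 15 of 239 between 20 and 40, and 3 and 15 of 84 above 160. The same classes over all tested regions had 3.41% higher and 6.41% lower, 9.83% and 8.3%, and 3.29% and 8.36%. Width and mean value were not separated from each other here. By gene length, 9 of 108 regions at genes of at most 5 kb were called higher and 11 lower (8.33% and 10.2%). At genes over 50 kb, 11 and 20 of 179 were (6.15% and 11.2%), and all tested regions had 7.7% and 9.6%.

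Regions just inside and just outside the distance limits were also counted. Of 88 regions centred 900 to 1000 bp from an end, 4 were called higher and 14 lower (4.55% and 15.9%), with a median of -0.06. Of 77 centred 1000 to 1100 bp away, 4 and 7 were (5.19% and 9.09%), with a median of -0.10. All tested regions had 7.7% higher and 9.6% lower. A further 495 regions within 1 kb of an end had a start site within 2 kb, and 22 of those were called higher and 26 lower (4.44% and 5.25%). RefSeq gave an end for 723 of the 748 regions by symbol, and 623 of those centres lay within 1 kb of it.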

How the data were processed

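ATAC-seq accessibility was compared between 3 WT and 3 CSE-KO libraries of mouse lung endothelial cells. The authors' deposited values are a score: counts per region, normalised and rounded to whole numbers, judged from the values. The planned test was limma, with a count model in its place if the values were raw counts. These are not raw counts, so limma was used and no count model was run. Trimmomatic 0.39, STAR 2.7.3a, Picard 3.1.1, DESeq2 1.26.0 and the build mm10 are listed, without roles, in the submitters' processing notes. For the peak caller, the Tn5 offset and reads with several matches, the handling is not given in the sources used here. Other per-sample columns numbered 0.

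Gene ends, start sites and biotypes are those of the table. A promoter is the region nearest the start site with its centre within 1 kb. The test was limma (3.58.1, under R 4.3.3), applied to log2(value + 1) of regions with a mean of at least 5, with Benjamini-Hochberg adjustment over the whole table. The method was tested on simulated data.

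Named were the 12 largest called rises and falls with separate groups and at least the median value, 1 region per gene, up to 4 called genes per list (otherwise up to 2), and up to 6 regions of highest mean. Members and lists were chosen with earlier results of these data known. Alternatives were the pseudocount, filter, scaling, fit, replicate block, distances and each library left out. A motif search within the regions was not made. Promoter sequences are from RefSeq. 1 region of the leukocyte list is not reported here.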

Additional observations from a re-analysis of the deposited data

How the results depend on the processing

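The number of regions called higher was 40 and lower 81. Leaving out 1 library gave 21 to 37 higher and 25 to 74 lower, and 10 to 12 at least 4-fold higher. The difference of 3' end minus promoter was then called positive in 15 to 28 genes and negative in 12 to 62. With intensity trend and robust variance in limma, 135 were called lower. A 3' end within 500 bp left fewer regions (17 higher, 34 lower, 5 at least 4-fold higher; 18 and 32 genes against their promoter), and 2 kb took in more (94 and 160; 51 and 129 genes). The median change stayed below 0 in every alternative, from -0.14 to -0.07. The share of all values was 1.70 percentage points higher in CSE-KO once predicted genes no longer counted as start sites, which added 39 regions, 2 of them above 10000.

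With the replicate block, 25 regions were called higher and 44 lower, and 28 and 48 genes differed from their promoter. Libraries of the same number correlated at -0.00593, -0.0105 and 0.0105 in their deviations, so no shared deviation by number was seen. Libraries made in pairs need not deviate together, so these values cannot show whether they were paired, and the labels do not say.

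Of 34 named regions that were called, 28 were called in every alternative, and Aacs, Cct8, Gnaq, Nfe2l3, Rps15a and Tmsb4x were not; the cause was not tested. Among regions not called, Wwc1 ran from -0.0089 to 0.17 with 1 library left out, below 0 without WT replicate 3 (-0.0046) or CSE-KO replicate 1 (-0.0089). Scgb1a1 ran from -0.20 to 0.10, above 0 without CSE-KO replicate 1 (0.10) or 2 (0.031), and was at 0.0059 with quantile normalisation. Depth limits low CSE-KO values most, and no raw counts were used here.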
